A study of Mus musculus with 12 samples.

Results

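Gene expression of 4T1 cells recovered from the lungs of young mice was compared with that of 4T1 cells kept in dishes in a fluid extract of young lungs, over the 20187 genes that have a row in both deposited tables, of 26244 genes in either table. The comparison uses 6 of the 12 libraries of the series, 3 in each group. 4T1 is a mammary carcinoma line of Balb/c mice that colonises the lung. For the lung group, Balb/c mice labelled young received 5000 4T1 cells by the tail vein, marked with mNeonGreen, a fluorescent protein. After 4 weeks the cells were recovered from the lungs on a cell sorter, with 100000 cells taken per library. For the culture group, 4T1 cells were plated in medium with 10% serum, then moved to medium that held no serum but 25% interstitial fluid extract (IFE), made from lungs of young mice with 4T1 metastases, and collected after 72 h. The titles of the culture libraries also carry shNT, which the protocols do not explain, and mNeonGreen is named for the injected cells alone. The age behind the word young, the number of mice behind each lung library or each extract, and whether the cultures were separate are not given in the sources used here, so p-values measure only the spread between these libraries. The series title names the purpose, which is to model a tumour of old age in a dish with lung fluid, and the comparison described here asks how the dish differs from the lung at the young end.

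Cells in a metastasis sit among blood vessels, matrix, macrophages and other immune cells, receive hormones and cytokines, and share limited oxygen. The fluid extract can carry soluble factors of that tissue into a dish, but not its cells, its architecture or its oxygen gradients. Glucocorticoid hormones act through the glucocorticoid receptor, interferons through STAT and IRF factors, and low oxygen through HIF factors. Misfolded proteins in the endoplasmic reticulum act through ATF6 and XBP1, and lack of amino acids through ATF4. Each of these routes ends in a known set of target genes, and the sets are described below one after another.

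Most genes differed between the groups. Levels are given as CPM, counts scaled to library size with TMM factors (edgeR's cpm), and a gene is called when its adjusted p is under 0.05 in edgeR's quasi-likelihood F-test with Benjamini-Hochberg adjustment. Of the 13748 genes with enough counts to test, 10868 were called (79.1%), 5621 higher in lung (40.9%) and 5247 lower (38.2%), with a median log2 fold change of 0.02. Groups that did not overlap were as common, at 80.2% of genes, with all lung libraries above in 41.2% and below in 38.9%. A stricter test, which asks whether a difference exceeds 2-fold, called 3399 genes (24.7%). It was lopsided, with 2369 genes higher in lung (17.2%) and 1030 lower (7.49%). A list of genes is therefore read here against these shares. The setting and the batch label are the same split of the libraries, and so are recovery from tissue by sorting and collection from plates, so that their effects cannot be told apart.

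**Figure D1:**
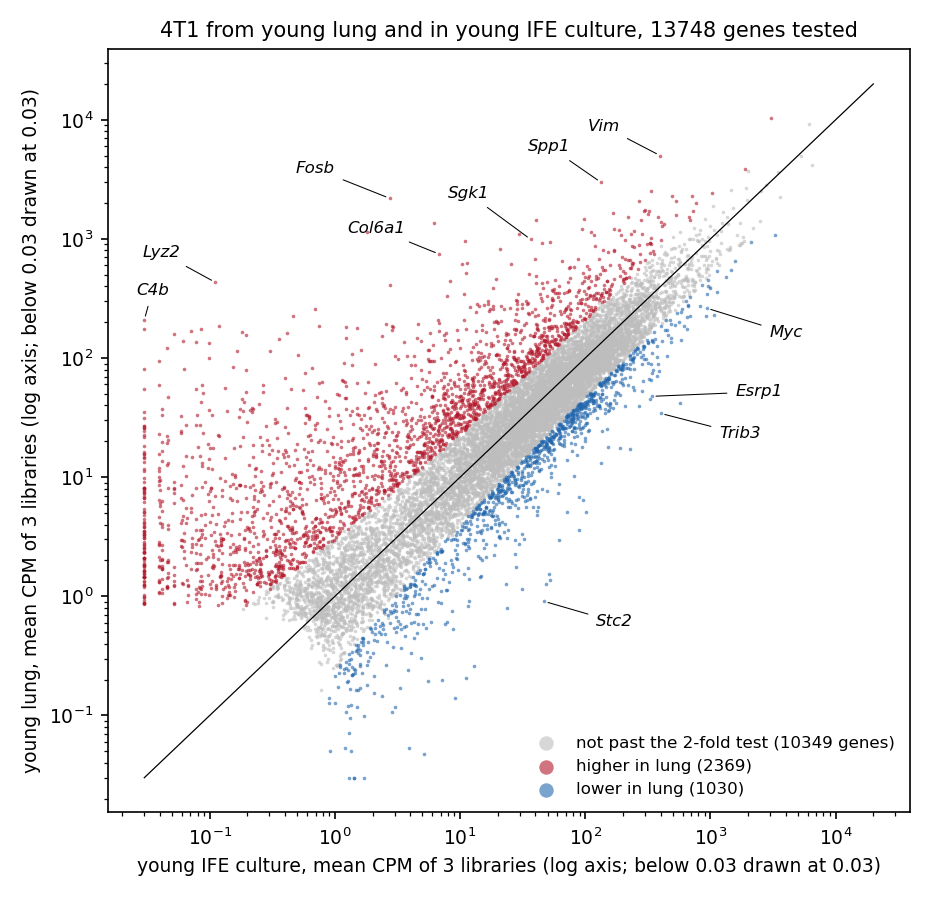
Mean CPM of the 3 young lung libraries (vertical, log axis) against mean CPM of the 3 young IFE culture libraries (horizontal, log axis) for the 13748 genes tested, with equal levels on the diagonal, genes past the 2-fold test in colour and values below 0.03 CPM drawn at 0.03. The 2369 genes higher in lung reach farther from the diagonal than the 1030 lower ones, many of them at culture levels under 1 CPM.

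The depth was similar in both groups. Library totals over the deposited tables were 13210864 to 15053144 counts in lung and 12299004 to 16340906 in culture. Replicates of each group differed from each other by more than sampling noise. Counts of ribosomal protein genes took 3.12% to 3.29% of lung libraries and 5.24% to 5.46% of culture libraries, and mitochondrial genes took 1.08% to 1.27% over the 6 libraries.

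Markers of carcinoma epithelium were looked at first, as levels only, since detection in bulk RNA does not tell which cells hold them. All 13 carcinoma markers looked for were detected in both groups, and they summed to 4014 to 4170 CPM in lung and 3163 to 3231 CPM in culture. Keratin genes weighed heavily in the lung sum, which is therefore not a measure of carcinoma content. In lung replicate 1, Krt8 held 21353 and Krt18 11050 of 53128 counts. In culture replicate 1, Krt8 held 4795 and Krt18 5605 of 49524 counts. Member by member, 8 of the 13 were called lower in lung and 5 higher, with 3 past the 2-fold test in each direction and a median log2 fold change of -0.48. Epcam, a surface protein of epithelial tumour cells, was at 161.4, 169.5 and 157.1 CPM in lung and at 146.6, 145.6 and 151.6 CPM in culture. The groups did not overlap, but the difference was 1.10-fold (adjusted p = 0.00187), and the call was lost without lung replicate 2 (adjusted p = 0.0519) and with library totals as the only scaling (adjusted p = 0.869).

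RNA of host cells was present in the lung libraries beside that of the carcinoma cells. Of 25 macrophage and monocyte markers, 13 were in both tables, and all 13 were higher in lung, with a summed level of 1539 to 1594 CPM against 19.89 to 24.92 CPM in culture. Lyz2, the lysozyme of macrophages and other myeloid cells, was at 427.9, 441.5 and 429.2 CPM in lung and at 0, 0.16 and 0.18 CPM in culture. Mrc1, the mannose receptor of tissue macrophages, was at 133, 134.9 and 137.7 CPM in lung and at 0, 0 and 0.24 CPM in culture. Both genes were close to absent from the dish and abundant in each lung library. Of 18 genes common to leukocytes 7 were in both tables and all 7 were higher in lung, with sums of 528.1 to 535.4 CPM against 67.26 to 73.53 CPM.

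Markers of vessels and alveoli were also higher, at smaller sums. For vessels, 9 of 10 tested endothelial genes were called higher, with sums of 319.9 to 328.6 CPM in lung and 127.9 to 136.2 CPM in culture. Selp, the P-selectin of endothelium and platelets, was at 32.05, 31.56 and 32.03 CPM in lung and at 0.12, 0.16 and 0.24 CPM in culture. For lung epithelium, 11 of 12 alveolar and airway genes were higher and Foxj1, a factor of ciliated cells, was lower, with sums of 207.9 to 222.4 CPM against 147.6 to 156.8 CPM. Fibroblast and pericyte genes summed to 532.8 to 567.6 CPM in lung and 218.6 to 231.2 CPM in culture, with 3 of 5 called higher and 2 lower. Neutrophil genes, 5 tested and 5 higher, summed to 215.5 to 229.4 CPM and 114.4 to 123 CPM. A few genes also present in culture made up much of these sums, which are therefore not levels of host RNA alone. In culture replicate 1, Eng held 1427 and Flt1 594 of 2087 endothelial counts. Abca3 held 1748 of 2404 alveolar and airway counts there, and Mmp9 1749 of 1754 neutrophil counts. In lung replicate 1, Abca3 held 1644 of 2921 counts and Mmp9 2199 of 2896. Sums of T and NK cell genes overlapped, at 9.26 to 9.44 CPM in lung and 8.16 to 9.35 CPM in culture. Of 13 B and plasma cell genes, the 5 of both tables summed to under 5 CPM in all 6 libraries. Mzb1 and Blk of them were at 0 in culture, as was the erythroid anion exchanger gene Slc4a1. The 8 B and plasma cell genes of the lung table alone summed to 21.19 to 22.97 CPM in young lung. Ighm and Igkc, antibody chain genes among these, had means of 10.37 and 8.323 CPM there. In such bulk libraries, a change in the number of cells of a type and a change in the RNA per cell cannot be told apart. A host marker near 0 in culture could enter the test only through its lung counts. Its call as higher was then largely set by the filter, so counts of such calls carry little weight. With a mean of 10 CPM or more required, 3 endothelial, 2 alveolar and airway and 2 neutrophil genes were tested, all called higher. The part that host RNA plays in each result below was not tested, except where a value that bears on it is given.

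**Figure D2:**
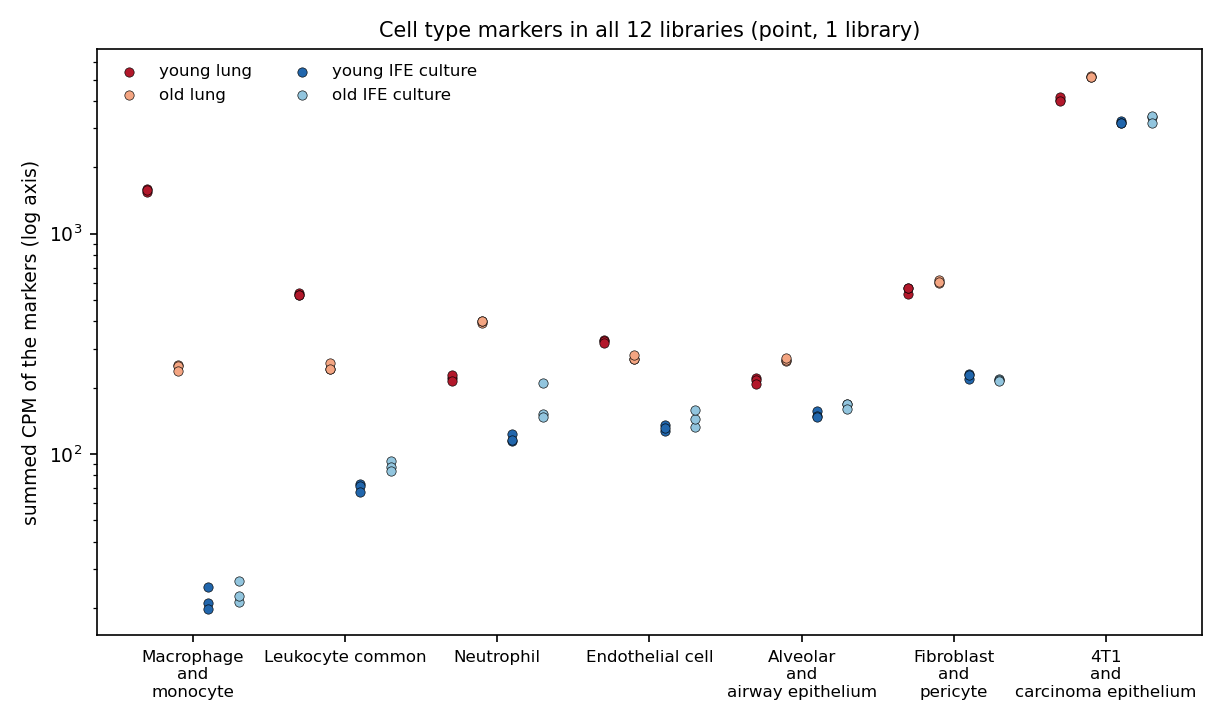
Summed CPM (log axis) of 7 marker lists in each of the 12 libraries, coloured by group. The macrophage and monocyte sum was at 1539 to 1594 CPM in young lung, 239.4 to 254.5 CPM in old lung and 19.89 to 24.92 CPM in young culture.

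Immediate early genes held some of the largest differences. These genes are transcribed within minutes of a stimulus and encode factors such as FOS, EGR1 and NR4A1. All 28 listed genes were tested, 27 were called higher in lung and past the 2-fold test, and the median log2 fold change was 3.93 against 0.02 over all genes. Fosb (ENSMUSG00000003545, chromosome 7, 19036621 to 19043976, minus strand, in the coordinates of the files, with the build not given in the sources), a partner of JUN in the AP-1 factor, was at 2214, 2175 and 2183 CPM in lung and at 2.43, 3.27 and 2.53 CPM in culture. That was an 808.3-fold difference (log2 9.66 ± 0.05 SE, adjusted p = 2.94e-72). Fos, the founding AP-1 member, was at 1147, 1147 and 1146 CPM in lung and at 1.56, 1.79 and 2.06 CPM in culture (631.3-fold, adjusted p = 6.21e-69).

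Egr1, a zinc finger factor induced by growth factor signals, was at 1372, 1347 and 1367 CPM in lung and at 6.23, 6.07 and 6.35 CPM in culture (218.4-fold, adjusted p = 1.5e-69). The 3 lung libraries lay within a few percent of each other for all of these genes, and the groups were far from overlapping. Nr4a1, an orphan nuclear receptor, was 89.86-fold higher, and its relative Nr4a2 53.92-fold. Dusp1, a phosphatase that switches off MAP kinases, was 59.95-fold higher (617.7 ± 5.32 against 10.42 ± 1.77 CPM, SD, n = 3). Zfp36, which destabilises cytokine mRNA, was 39.53-fold higher, and Btg2, an antiproliferative gene, 64.48-fold. Klf4, a zinc finger factor of epithelia, was 23.38-fold higher. Myc was the single listed gene that was lower in lung. It encodes a driver of growth and ribosome production, and was at 254.8, 261.4 and 270.7 CPM in lung and at 909.2, 938.3 and 956.8 CPM in culture (3.56-fold lower, adjusted p = 5.72e-48). For this list 2 motifs were chosen after its values were seen. The cyclic AMP response element TGACGTCA was in 3 of 29 promoters (10.3%), against 1.79% of all promoters, and the serum response element, searched in 1 spelling, was in 0 of 29, against 0.0639%. Cells were isolated from tissue and sorted for one group and collected from plates for the other, and the part of this handling in the result cannot be told apart from the setting.

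Targets of the glucocorticoid receptor were higher with few exceptions. Of 26 listed genes 21 were tested, 19 were higher in lung and 2 were lower, and 15 passed the 2-fold test, with a median log2 fold change of 2.18. Sgk1 (ENSMUSG00000019970, chromosome 10, 21758083 to 21875802, plus strand in the files), a kinase that acts on ion channels and survival, was at 984.3, 981.5 and 1002 CPM in lung and at 38.27, 33.53 and 38.37 CPM in culture (26.8-fold, adjusted p = 2.2e-61). Every lung library was above every culture library. Some of the listed genes, such as Dusp1 and Zfp36, also belong to the immediate early list.

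The targets that are used most often to read hormone action moved less. Fkbp5, a chaperone partner of the receptor, was at 199.1, 198.5 and 192.3 CPM in lung and at 64.88, 69.31 and 69.46 CPM in culture (2.90-fold, adjusted p = 2.68e-36). Tsc22d3, which encodes the anti-inflammatory protein GILZ, was at 63.39, 64.06 and 61.67 CPM in lung and at 47.43, 42.94 and 46.07 CPM in culture (1.38-fold, adjusted p = 2.16e-09). Both were higher in each lung library, by far less than Sgk1. Per1, a clock gene with receptor sites, was 9.19-fold higher, and Errfi1, which restrains the EGF receptor, 9.96-fold. Ddit4 and Klf9 were the 2 targets that were lower, with log2 fold changes of -0.86 and -0.27. Nr3c1, the receptor gene itself, was at 82.95, 84.62 and 89.63 CPM in lung and at 179.7, 179.6 and 183.8 CPM in culture (2.11-fold lower, adjusted p = 1.49e-29). Hormone was not measured in these files.

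Interferon response genes were higher in lung almost throughout. Of 34 genes of the type I response, 33 were higher and Ddx58 (log2 fold change -0.14) was lower, 29 passed the 2-fold test, and the median log2 fold change was 2.82. Stat2 (ENSMUSG00000040033), part of the ISGF3 factor that interferon activates, was at 116.7, 120.5 and 120.5 CPM in lung and at 8.29, 8.71 and 7.70 CPM in culture (14.54-fold, adjusted p = 9.52e-45). Zbp1, a sensor of Z-form nucleic acids, was at 60.6, 61.97 and 62.09 CPM in lung and at 1.56, 1.71 and 1.23 CPM in culture (41.3-fold). Oasl2, of the oligoadenylate synthase family, was 9.13-fold higher and Bst2, the tetherin that holds virions at the cell surface, 6.51-fold.

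Genes of class I antigen presentation and the interferon gamma response were higher in all 30 cases tested, 29 of them past the 2-fold test, with a median log2 fold change of 3.94. B2m, the light chain of every class I molecule, was at 1709, 1714 and 1713 CPM in lung and at 321.3, 330.5 and 323 CPM in culture (5.27-fold, adjusted p = 5.15e-56). The heavy chain genes H2-D1 and H2-K1 were 5.81-fold and 12.36-fold higher; they are closely related copies, so reads could be split between them. Tap1, which carries peptides into the endoplasmic reticulum, was at 284.2, 287.3 and 280.7 CPM in lung and at 18.26, 15.64 and 16.69 CPM in culture (16.77-fold). Gbp2, a guanylate-binding GTPase, was at 393.2, 381.6 and 383.1 CPM in lung and at 19.76, 17.19 and 17.81 CPM in culture (21.08-fold, adjusted p = 2.72e-56). Irf1, the factor that relays interferon gamma to these genes, was 7.08-fold higher. No lung library overlapped a culture library for any of these genes.

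Class II genes, which professional antigen-presenting cells express, were higher as well. Cd74, the invariant chain, was at 1444, 1447 and 1433 CPM in lung and at 40.82, 43.49 and 36.55 CPM in culture (35.94-fold, adjusted p = 1.83e-56). H2-Ab1, a class II beta chain, was at 177.8, 174.8 and 176.2 CPM in lung and between 0 and 0.18 CPM in culture. The macrophage sum of 1539 to 1594 CPM moved with these genes. In old lung libraries, where that sum was 239.4 to 254.5 CPM, the median of the class I list against old IFE culture was 2.54 and that of the type I list 1.84.

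The interferon-stimulated response element is known from promoters of such genes. Its core, a pair of GAAA runs with any pair of bases between them, was searched on both strands from 250 bases before to 50 bases after each start site, in promoters that RefSeq places on GRCm38.p6. The core was found in 11 of 27 promoters of the type I list (40.7%) and in 12 of 30 of the class I list (40%), against 3.44% of 32851 promoters of the same length. Of the listed genes, 23 of 34 and 25 of 30 matched a promoter. The promoters of Stat2 and Gbp2 are shown because they are the matches of lowest p in each list, with the core or its complement in capitals, for chr10:128270248-128270547 (plus strand) and chr3:142620413-142620712 (plus strand).
Stat2: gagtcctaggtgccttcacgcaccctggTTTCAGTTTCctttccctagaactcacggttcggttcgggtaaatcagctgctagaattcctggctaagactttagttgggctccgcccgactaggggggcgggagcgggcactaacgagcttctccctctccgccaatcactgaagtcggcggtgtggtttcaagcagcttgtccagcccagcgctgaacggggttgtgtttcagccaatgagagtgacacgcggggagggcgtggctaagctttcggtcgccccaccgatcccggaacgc
Gbp2: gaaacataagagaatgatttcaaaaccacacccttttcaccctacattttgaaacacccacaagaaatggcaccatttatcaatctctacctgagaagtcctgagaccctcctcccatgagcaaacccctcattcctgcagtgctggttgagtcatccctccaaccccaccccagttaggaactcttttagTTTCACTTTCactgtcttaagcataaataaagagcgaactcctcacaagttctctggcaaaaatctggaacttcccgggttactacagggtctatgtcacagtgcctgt

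Inflammatory genes of the NF-kB route were higher in 27 of 32 cases, with 2 lower and a median log2 fold change of 2.68. Tnfaip3, the A20 enzyme that ends NF-kB signals, was at 1463, 1454 and 1469 CPM in lung and at 101, 94.29 and 96.79 CPM in culture (log2 fold change 3.91, adjusted p = 1.44e-62). Nfkbiz, a nuclear cofactor of the route, was 18.13-fold higher and Nfkbia, its inhibitor, 7.24-fold. Cxcl1, a chemokine that draws neutrophils, was at 914.1, 927.1 and 920.5 CPM in lung and at 47.74, 45.28 and 43.25 CPM in culture (20.27-fold, adjusted p = 1.69e-61). Lif, a cytokine of the IL-6 family, was 6.38-fold higher (1179 ± 4.97 against 184.7 ± 1.23 CPM). The subunit genes themselves, Rela and Relb, were not called, with log2 fold changes of 0.03 and -0.03. Ccl20, a chemokine for CCR6-bearing cells, and Il23a were lower, with log2 fold changes of -4.72 and -0.74.

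Complement and coagulation genes were higher in 14 of 15 cases tested, and 8 further listed genes were not tested. C4b, a complement component, was at 203.2, 218.8 and 202.9 CPM in lung and at 0 in the 3 culture libraries, at least 3190-fold higher with the floor set at 3 counts over the culture group. F13a1, a clotting factor chain of macrophages and platelets, had 3857 counts in lung and 2 in culture, a ratio of 2173 (95% counting interval 601.1 to 1.795e+04; such intervals and floors cover counting error only). C3, the central complement component, was at 349.7, 361.8 and 350.1 CPM in lung and at 65.06, 63.64 and 57.12 CPM in culture (5.72-fold). Macrophage markers were also higher in young lung than in young culture, and the part of macrophage RNA was not tested. The median log2 fold change of the list was 2.84 in the young contrast and 2.7 in the old one. The macrophage sum was 1539 to 1594 CPM in young lung and 239.4 to 254.5 CPM in old lung.

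Ligands that immune cells read were higher too, in 11 of 13 tested cases with 1 lower. Cd274, which encodes PD-L1, the ligand of the T cell brake PD-1, was at 60.36, 54.78 and 59.08 CPM in lung and at 4.05, 4.67 and 4.82 CPM in culture (12.85-fold, adjusted p = 2.63e-36). Lgals9, the TIM-3 ligand galectin-9, was 19.89-fold higher, Vsir, which encodes the checkpoint VISTA, 44.65-fold and Pvr, a ligand of TIGIT, 2.37-fold. Cd276 was the one lower gene (log2 fold change -0.50). Genes of the lysosome were higher in 24 of 27 cases. Ctsb and Ctsd, which encode cathepsin proteases, were 4.73-fold and 4.57-fold higher, and Psap, the precursor of lipid-degrading activators, 5.11-fold (1612 ± 37.7 against 315.5 ± 6.2 CPM). Ctsc, a cathepsin abundant in myeloid cells, was 8.26-fold higher. The median log2 fold change of the lysosome list was 1.56 in young and 0.88 in old libraries. Macrophages hold many lysosomes, and the part of their RNA in this list was not tested.

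**Figure D3:**
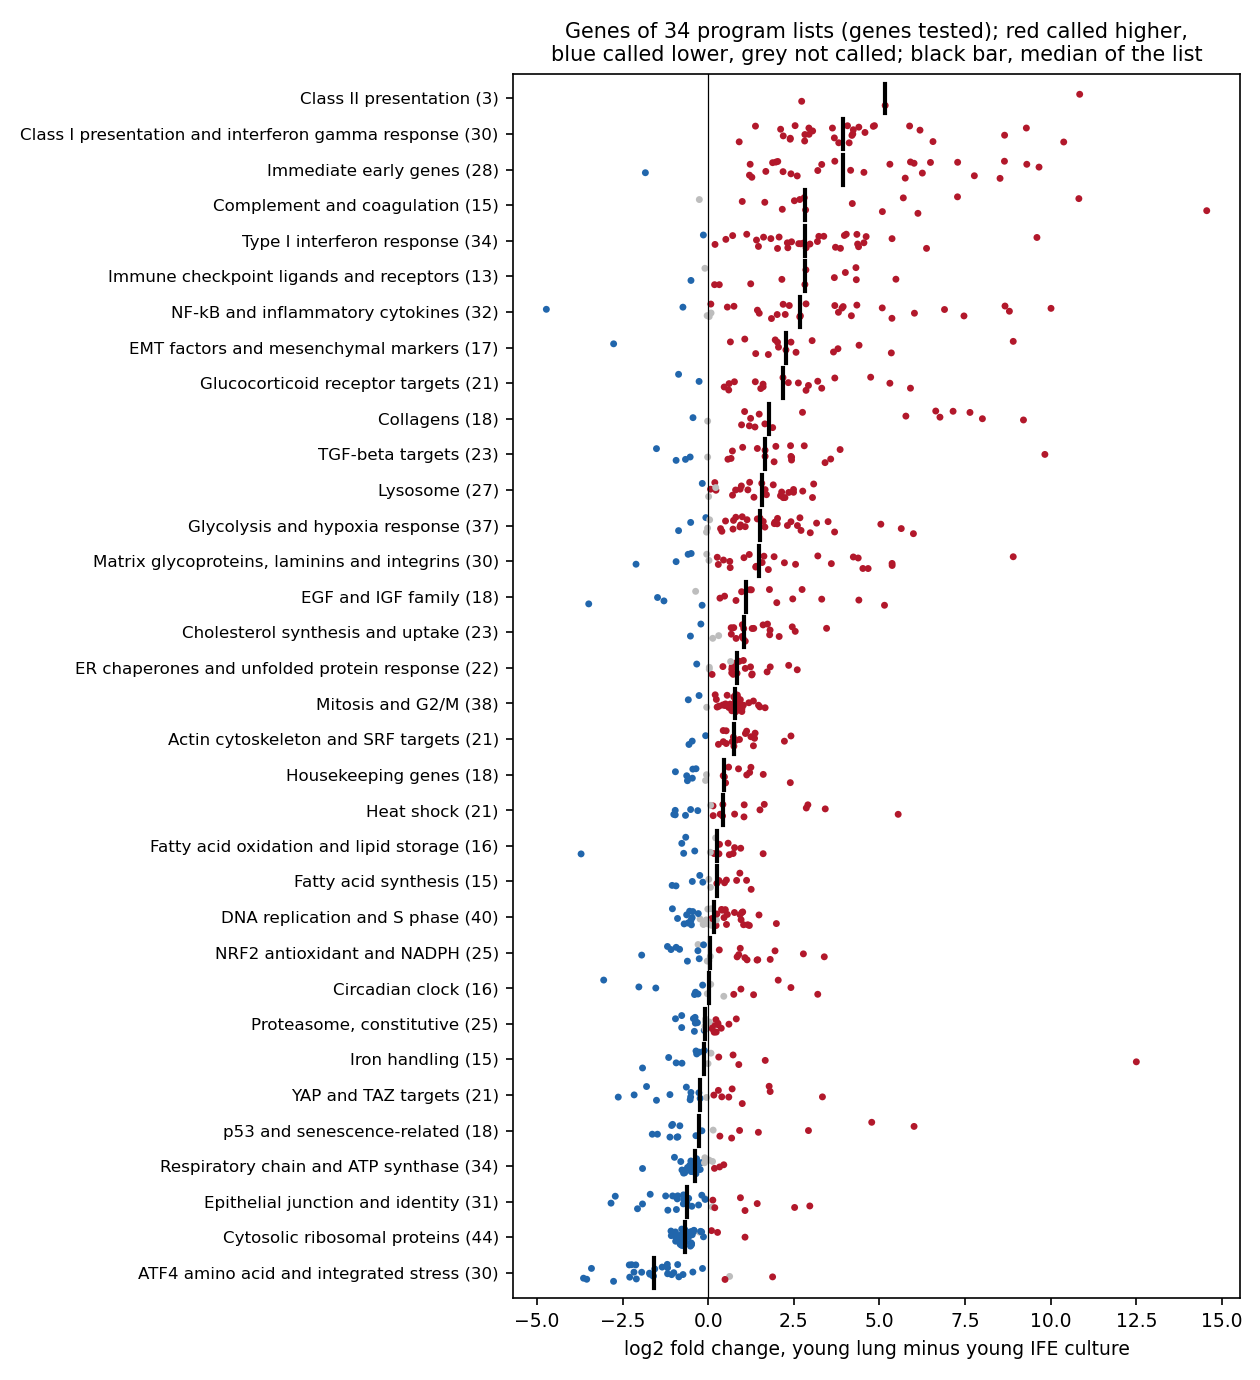
Log2 fold change of lung over culture for each tested member of 34 gene lists (points, coloured by call) and the median of each list (bar); the vertical line is at 0, and members with no counts in culture, such as C4b, sit where the fit's prior count puts them. Immediate early, interferon and glucocorticoid receptor target lists lie to the right, and ATF4, ribosomal protein, epithelial and respiratory chain lists lie to the left.

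Glycolysis and hypoxia genes were higher in 31 of 37 cases, 21 of them past the 2-fold test, with 3 lower and a median log2 fold change of 1.52. Car9 (ENSMUSG00000028463, chromosome 4, 43506966 to 43513729, plus strand in the files), the carbonic anhydrase widely used to mark low oxygen, was at 140.9, 155.4 and 147.6 CPM in lung and at 4.86, 4.43 and 4.17 CPM in culture (32.93-fold, adjusted p = 7.25e-49). Egln3, an oxygen-sensing hydroxylase that HIF itself induces, was at 263.2, 257.7 and 247.5 CPM in lung and at 23.87, 22.56 and 21.45 CPM in culture (11.32-fold, adjusted p = 1.65e-50). Both marker genes were above every culture library in every lung library. Vegfa, the growth factor of vessels, was 4.07-fold higher (492.3 ± 14.5 against 121.1 ± 10.2 CPM), and the glucose transporter gene Slc2a1 2.70-fold.

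Several enzymes of glycolysis were higher as well. Aldoa, the muscle-type aldolase, was 3.86-fold higher, Tpi1, triose phosphate isomerase, 3.82-fold and Ldha, which makes lactate, 1.99-fold. Pgk1, Higd1a and Ak4 were not called, with log2 fold changes of -0.05, 0.04 and -0.02, and Ddit4, Egln1 and Eno1 were lower. Hif1a, whose product is controlled mainly as a protein, was 1.24-fold higher. Gapdh was at 19.7 to 21.87 CPM in lung and 4.94 to 8.04 CPM in culture; it has many near-identical pseudogenes, so its count is uncertain. The core of the hypoxia response element, ACGTG, was in 29 of 55 promoters of 34 of these genes (52.7%), against 19.6% of all promoters. The promoter of Egln3 is shown as the match of lowest p in the list, with the core in capitals, for chr12:54203825-54204124 on the minus strand.
Egln3: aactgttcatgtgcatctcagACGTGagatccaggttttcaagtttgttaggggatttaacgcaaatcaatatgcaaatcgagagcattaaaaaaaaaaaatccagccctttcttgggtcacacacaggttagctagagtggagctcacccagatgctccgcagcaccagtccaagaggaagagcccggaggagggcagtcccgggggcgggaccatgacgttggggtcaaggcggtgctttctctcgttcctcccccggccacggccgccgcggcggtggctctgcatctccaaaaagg

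Genes of the respiratory chain went the other way by small steps. Of 34 subunit genes 27 were lower in lung and 3 higher, but 1 passed the 2-fold test, and the median log2 fold change was -0.37. Atp5b, the catalytic subunit of ATP synthase, was at 1049, 1042 and 1036 CPM in lung and at 1791, 1824 and 1829 CPM in culture (1.74-fold lower, adjusted p = 1.65e-35). Ndufa9 of complex I and Sdha of complex II were 1.98-fold and 1.52-fold lower. The groups did not overlap for these genes, and the size of the difference was below 2-fold.

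Stress genes of the endoplasmic reticulum and of the amino acid response moved in opposite directions. Chaperones and unfolded protein response genes were higher in 18 of 22 cases with 1 lower, Herpud1, and had a median log2 fold change of 0.84. Pdia6, a disulfide isomerase, was at 801.4, 770.5 and 760 CPM in lung and at 150.9, 154.4 and 151.9 CPM in culture (5.10-fold, adjusted p = 5.87e-52). Calr, a calcium-binding chaperone of glycoproteins, was 3.30-fold higher (887.5 ± 23.4 against 269.1 ± 7.52 CPM), and Hsp90b1, the reticulum's HSP90, 2.44-fold. Hspa5, the master chaperone BiP, and Canx were not called, each with a log2 fold change of 0.03.

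The ER stress element was searched for in these promoters. The element, a CCAAT box with CCACG after a gap of 9 bases, searched on both strands, was in 9 of 20 promoters of the list (45%), against 0.119% of all promoters. The promoter of Pdia6 is shown as the match of lowest p, with the element in capitals, for chr12:17266339-17266638 on the plus strand. Promoters of Hspa5 and Canx, which were not called, held the element too.
Pdia6: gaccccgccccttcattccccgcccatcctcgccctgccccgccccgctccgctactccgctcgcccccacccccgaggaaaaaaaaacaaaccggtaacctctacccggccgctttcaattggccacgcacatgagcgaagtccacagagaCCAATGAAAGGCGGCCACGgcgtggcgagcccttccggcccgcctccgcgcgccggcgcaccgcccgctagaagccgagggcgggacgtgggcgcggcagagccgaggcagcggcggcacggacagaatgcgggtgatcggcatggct

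Genes of the ATF4 route, which cells switch on when amino acids or charged tRNAs are short, were lower in 27 of 30 cases, 20 of them past the 2-fold test in the lower direction, with a median log2 fold change of -1.58. Trib3 (ENSMUSG00000032715, chromosome 2, 152179342 to 152185952, minus strand in the files), a pseudokinase induced by ATF4, was at 33.72, 35.3 and 33.92 CPM in lung and at 396.4, 410.9 and 395.6 CPM in culture (11.68-fold lower, adjusted p = 2.56e-54). Asns, which makes asparagine, was at 76.11, 80.38 and 78.98 CPM in lung and at 403, 389.5 and 370.6 CPM in culture (4.94-fold lower). The culture libraries held the higher level in each case without overlap.

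Other enzymes of the route followed. Mthfd2, a mitochondrial folate enzyme, was 6.79-fold lower, Aars, the alanyl-tRNA synthetase, 4.70-fold and Slc7a11, the cystine importer, 3.84-fold. Atf4 itself was 2.00-fold lower (299.8 ± 13.8 against 600.9 ± 2.94 CPM). Slc38a2 and Atf3 were the 2 genes of the list that were higher. Atf3, which is also an immediate early type of gene, was at 856.3, 869.4 and 886.1 CPM in lung and at 236.1, 227.2 and 245.5 CPM in culture (3.68-fold, adjusted p = 3.95e-48). The composite element TGATGNAA, chosen for this list after its values were seen, was in 10 of 27 promoters of 23 listed genes (37.0%), against 3.97% of all promoters. The promoter of Trib3 is shown as the match of lowest p, with the element or its complement in capitals, for chr2:152344011-152344310 on the minus strand. That position is on GRCm38.p6 and does not line up with the gene coordinates given above, whose build is not given.
Trib3: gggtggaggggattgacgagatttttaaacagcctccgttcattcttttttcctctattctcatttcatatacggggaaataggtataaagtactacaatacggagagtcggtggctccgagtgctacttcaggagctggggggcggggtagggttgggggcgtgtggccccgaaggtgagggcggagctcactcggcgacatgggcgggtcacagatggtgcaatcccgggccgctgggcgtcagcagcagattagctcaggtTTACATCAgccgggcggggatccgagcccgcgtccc

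The mitosis and replication lists of the cell cycle differed in how uniformly their genes moved. Genes of mitosis and G2/M were higher in 35 of 38 cases with 2 lower and a median log2 fold change of 0.77, but 5 passed the 2-fold test. Mki67, the proliferation antigen Ki-67, was at 340.5, 353.7 and 350.8 CPM in lung and at 120.3, 131.6 and 116.6 CPM in culture (2.84-fold, adjusted p = 4.07e-38). Cenpf and Cenpe, which act at the kinetochore, were 2.77-fold and 2.28-fold higher, and Top2a, the topoisomerase of dividing cells, 1.98-fold. All lung libraries exceeded all culture libraries for these genes.

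Genes of DNA replication gave no single direction. Of 40 genes 20 were higher, 11 lower and 9 not called, with a median log2 fold change of 0.17. Uhrf1, which maintains DNA methylation at the fork, was 2.23-fold higher and Pold1, a catalytic polymerase subunit, 2.80-fold. Cdt1, a licensing factor, was at 102, 105.6 and 108.8 CPM in lung and at 219.5, 213.5 and 219.6 CPM in culture (2.06-fold lower, adjusted p = 2.03e-30). The share of cells in each phase was not measured. The cell cycle homology region TTTGAA was in 25 of 34 promoters of the mitosis list (73.5%), against 17.9% of all promoters, and CCAAT in 26 of 34 (76.5%) against 37.4%. The E2F letters TTTCGCGC and TTTGGCGC were in 16.7% and 13.9% of promoters of the replication list, against 0.323% and 0.514%. The promoter of Mki67 is shown as the mitosis match of lowest p, with TTTGAA in capitals, for chr7:135716330-135716629 on the minus strand.
Mki67: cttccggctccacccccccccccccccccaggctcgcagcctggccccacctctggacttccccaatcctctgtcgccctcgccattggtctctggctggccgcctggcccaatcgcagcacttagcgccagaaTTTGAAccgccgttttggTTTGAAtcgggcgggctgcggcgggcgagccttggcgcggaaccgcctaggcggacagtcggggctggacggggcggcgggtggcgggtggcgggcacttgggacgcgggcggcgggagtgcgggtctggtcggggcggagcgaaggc

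Ribosomal protein genes were lower in 40 of 44 cases with a median log2 fold change of -0.67, and 2 passed the 2-fold test. Rpl19, a protein of the large subunit, was at 525.8, 549.3 and 540.8 CPM in lung and at 1130, 1115 and 1162 CPM in culture (2.11-fold lower, adjusted p = 4.56e-39). Rpl4 was at 1378, 1435 and 1423 CPM in lung and at 2448, 2499 and 2525 CPM in culture (1.76-fold lower). Both groups were tight, and none overlapped for either gene. These genes have many near-identical pseudogene copies, so single values are uncertain. Rps4x, Rpl6 and Rpl24 were higher. Constitutive proteasome subunits were 10 higher and 10 lower of 25, with a median log2 fold change of -0.08 and none past the 2-fold test. That split moved with the scaling, to 8 higher and 14 lower with upper-quartile factors or no filter and to 6 higher and 14 lower with library totals alone.

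**Figure D4:**
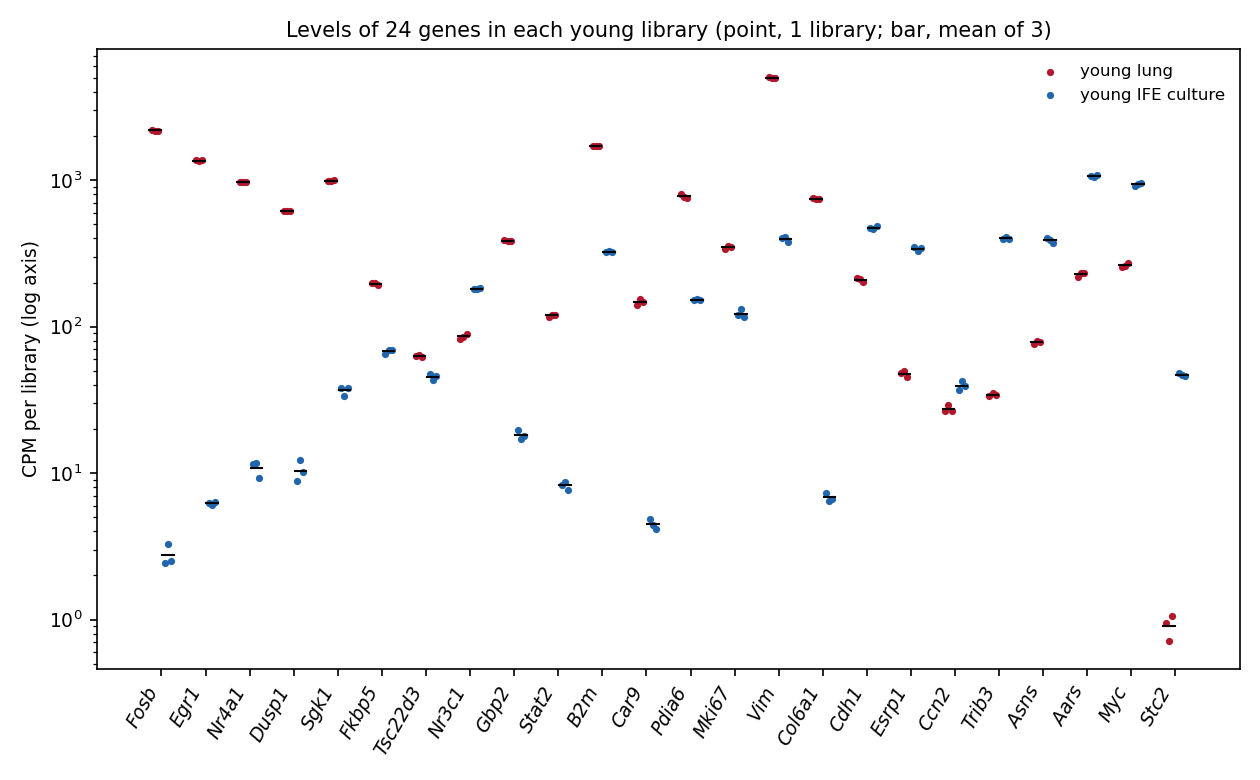
Level in every young library (CPM, log axis) of 24 genes of the programs described, with lung and culture libraries as separate points and the mean of 3 as a bar. The points of a group lie close together, and the groups do not overlap for the genes shown.

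Cholesterol genes were higher in 19 of 23 cases with 2 lower, 11 passed the 2-fold test, and the median log2 fold change was 1.04. Insig1, a sterol-regulated brake of the pathway, was at 105.2, 106.3 and 106.1 CPM in lung and at 18.76, 18.59 and 20.39 CPM in culture (5.49-fold, adjusted p = 5.66e-38). Sqle, squalene epoxidase, was 2.12-fold higher (174.3 ± 1.28 against 82.27 ± 3.18 CPM). The groups did not overlap for either gene. Msmo1 and Sc5d were lower, with log2 fold changes of -0.52 and -0.21. The sterol element core TCACNCCAC was in 1 of 19 promoters of the list (5.26%), against 1.24% of all promoters.

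Other lipid genes were mixed. Of 15 fatty acid synthesis genes 8 were higher and 5 lower, with a median log2 fold change of 0.25. Srebf1, a master regulator of lipid synthesis, was 2.39-fold higher and Acaca, the enzyme that commits carbon to fatty acids, 2.07-fold lower. Of 16 fatty acid oxidation and lipid storage genes 9 were higher and 5 lower. Cpt1a, the gate to mitochondrial oxidation, was 1.71-fold higher, while Plin2, which coats lipid droplets, was 1.71-fold lower (148 ± 2.9 against 252.5 ± 7.09 CPM). Acot2, a mitochondrial thioesterase, was at 7.79, 6.47 and 6.38 CPM in lung and at 82.83, 94.36 and 92.32 CPM in culture (13.09-fold lower).

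Genes of epithelial junctions and identity were lower in 21 of 31 cases and higher in 7, with a median log2 fold change of -0.62. Cdh1, E-cadherin, was at 215, 211.7 and 202.7 CPM in lung and at 469.4, 465.1 and 487.6 CPM in culture (2.26-fold lower, adjusted p = 8.19e-37). Esrp1, a splicing factor that keeps epithelial isoforms, was at 48.44, 49.75 and 44.99 CPM in lung and at 348.8, 328.5 and 344 CPM in culture (7.14-fold lower, adjusted p = 1.56e-49). Culture libraries were higher for both without overlap. Of the 5 listed keratin genes tested, 4 were higher in lung and Krt7 was lower, with a log2 fold change of -0.57. Krt8, a keratin of simple epithelia, was at 1698, 1746 and 1665 CPM in lung and at 298.8, 309.9 and 280.4 CPM in culture (5.75-fold), Krt18, its partner, was 2.70-fold higher and Krt14, a basal keratin, 7.82-fold, and Krt19 had a log2 fold change of 1.08.

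Mesenchymal genes were higher in 16 of 17 tested cases, with a median log2 fold change of 2.27. Vim (ENSMUSG00000026728, chromosome 2, 13578738 to 13587637, plus strand in the files), the filament vimentin of mesenchymal cells, was at 5034, 5023 and 4966 CPM in lung and at 404.6, 408.9 and 376.4 CPM in culture (12.63-fold, adjusted p = 2.79e-59). Snai1 and Twist1, repressors of epithelial genes, were 4.15-fold and 4.07-fold higher, Zeb1 8.19-fold and Zeb2 2.10-fold. Zeb1 was low throughout, at 5.25 to 7.99 CPM in lung and 0.56 to 1.17 CPM in culture. Postn, periostin, was the single lower gene, at 5.73, 5.32 and 5.96 CPM in lung and at 36.83, 39.05 and 39.49 CPM in culture (6.78-fold lower). Macrophages, fibroblasts and endothelium also contain vimentin, their marker sums were higher in lung, and their part in the mesenchymal values was not tested.

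Collagens were higher in 16 of 18 cases, 13 past the 2-fold test, with a median log2 fold change of 1.77. Col6a1, a chain of microfibrillar collagen, was at 756.9, 740.7 and 738.5 CPM in lung and at 7.29, 6.46 and 6.70 CPM in culture (108.9-fold, adjusted p = 1.21e-64). Its partner chain Col6a2 was at 190.2, 186.4 and 184.8 CPM in lung and at 0.25, 1.17 and 0.82 CPM in culture (257.1-fold). The fibroblast collagen Col1a1 stayed at a lower level, at 57.88 to 72.39 CPM in lung and 0.88 to 1.62 CPM in culture. Col4a1 and Col4a2 of basement membranes did not share the rise, with log2 fold changes of -0.01 (not called) and -0.44.

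Other matrix genes were higher in 24 of 30 cases with 4 lower and a median log2 fold change of 1.49. Fn1, fibronectin, was at 10350, 10320 and 10430 CPM in lung and at 2995, 3077 and 3131 CPM in culture (3.38-fold, adjusted p = 2.47e-55). Itgb4, the hemidesmosome integrin, was 4.68-fold higher, Lama5, a laminin chain, 2.64-fold and Thbs1, thrombospondin-1, 3.80-fold. Lama3 and Lamb3, chains of laminin-332, and the integrin genes Itga2 and Itgb6 were lower. Itgb1 and Itgav were not called.

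Genes of the actin cytoskeleton and targets of the factor SRF were higher in 18 of 21 cases and lower in 3. Of them 7 passed the 2-fold test, all higher, and the median log2 fold change was 0.75. Actg1, a cytoplasmic actin, was 4.68-fold higher (2312 ± 19.1 against 494.1 ± 16.9 CPM) and Actb, the other one, 2.38-fold. Targets of YAP and TAZ, cofactors that read cell shape and density, were 9 higher and 11 lower of 21, with a median log2 fold change of -0.23. Ccn1, a matricellular protein and also an early gene, was at 658.9, 664.5 and 653.5 CPM in lung and at 65.69, 61.46 and 68.05 CPM in culture (10.1-fold), while its relative Ccn2 was at 26.64, 29.05 and 26.63 CPM in lung and at 37.14, 42.48 and 39.2 CPM in culture (1.44-fold lower, adjusted p = 8e-08). Wwc1, of the Hippo pathway itself, was 4.47-fold lower.

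TGF-beta targets were higher in 18 of 23 cases and lower in 4, with a median log2 fold change of 1.66. Ltbp2, a protein of elastic fibres, was 5.30-fold higher, Id3, an inhibitor of differentiation factors, 14.44-fold (247.6 ± 1.96 against 17.04 ± 1.29 CPM) and Tgfbi, a secreted matrix protein, was at 166.7, 168 and 164.7 CPM in lung and at 0.31, 0.23 and 0 CPM in culture. Tgfb2, a ligand, was lower. In the EGF and IGF family, 13 of 18 genes were higher and 4 lower. Areg, a ligand of the EGF receptor, was 6.69-fold higher, Hbegf, another, 3.46-fold and Igfbp4, an IGF carrier, 4.01-fold. Btc, Nrg1 and the receptor gene Erbb3 were lower, with log2 fold changes of -3.49, -1.48 and -1.29.

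Antioxidant genes of the NRF2 route were 12 higher and 9 lower of 25, with a median log2 fold change of 0.06, near that of all genes. Idh1, which makes cytosolic NADPH, was at 102.4, 102.7 and 102.7 CPM in lung and at 15.02, 15.4 and 14.46 CPM in culture (6.87-fold). Hmox1, haem oxygenase, was 1.91-fold lower and the glutathione genes Gclc and Gclm were lower as well. Nfe2l2, the gene of NRF2, was 1.38-fold higher. The element core TGACNNNGC was in 25.9% of promoters of the list and 12.4% of all promoters. Of 15 genes of iron handling, 5 were higher and 8 lower. Fth1, the ferritin heavy chain, was 1.86-fold higher. Trf, transferrin, had 7180 counts in lung and 1 in culture, a ratio of 8090 (95% counting interval 1452 to 3.196e+05).

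Heat shock genes were 14 higher and 6 lower of 21. The inducible Hspa1b, which has a near-identical copy in Hspa1a, was at 195.6, 202.2 and 208.3 CPM in lung and at 19.57, 17.35 and 19.51 CPM in culture (10.69-fold), and the constitutive Hspa8 was 7.52-fold higher (2526 ± 21 against 335.8 ± 4.69 CPM). Hspd1 and Hspe1, the chaperonin of mitochondria, were lower, each with a log2 fold change of -0.96, and Hspa4, a cofactor of HSP70, was 2.00-fold lower. Of 18 p53 and senescence-related genes 7 were higher and 10 lower. Cdkn1a, the cell cycle inhibitor p21, was at 141.2, 132.7 and 130.1 CPM in lung and at 14.46, 20.3 and 18.63 CPM in culture (7.61-fold), whereas Trp53 was 2.06-fold and Zmat3, a p53 target, 3.10-fold lower.

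Clock genes were 6 higher and 7 lower of 16, with a median log2 fold change of 0.02. Per2 and Bhlhe40, which repress the clock's activator, were 4.13-fold and 5.34-fold higher. Ciart, another repressor, was at 7.64, 7.98 and 6.52 CPM in lung and at 59.02, 57.65 and 66.29 CPM in culture (8.28-fold lower). The labels give no hour of collection. Txnip, an arrestin that responds to glucose, was at 111.3, 112.9 and 112.6 CPM in lung and at 118.3, 110.2 and 117.8 CPM in culture, with overlapping groups and no call (adjusted p = 0.392). With library totals as the only scaling it was called lower (log2 fold change -0.17), and its sign turned under TMM scaling on genes expressed in old IFE culture (0.04). Of 18 genes often used as housekeeping controls, 10 were higher and 6 lower. Hprt and Pgk1 were the 2 not called, with log2 fold changes of -0.08 and -0.05.

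The 12 largest rises by fitted fold change were taken among protein-coding genes past the 2-fold test with a mean of 10 CPM or more over the 6 libraries, and their culture counts were at or near 0. For a gene at 0 in culture the fitted fold, and so its rank, depends on the prior count of the fit. Among genes outside the 12, Mgp, Ly6a, F13a1 and Dmp1 had ratios of 2760, 2595, 2173 and 2140, above the bounds given below for genes at 0 other than C4b. Mpeg1, perforin-2 of macrophages, had 6502 counts in lung and 2 in culture, a ratio of 3663 (95% counting interval 1014 to 3.025e+04). Il1rn, the IL-1 receptor antagonist, had a ratio of 3718 (666.9 to 1.469e+05). Ccl9, a macrophage chemokine, was at 56.39, 54.71 and 53.4 CPM in lung and at 0 in culture, at least 838.3-fold higher. Ly6c1, a surface antigen of endothelium and of myeloid and T cells, was at least 546.1-fold higher by the same floor. Csf2rb2, a receptor chain for IL-3, Hk3, a hexokinase of myeloid cells, Pik3ap1, an adaptor of B cells and macrophages, Lair1, an inhibitory collagen receptor of leukocytes, and Plbd1, a lysosomal hydrolase, were at 0 in all 3 culture libraries and at 20.6 to 30.46 CPM in lung. Lyz2, Trf and C4b, described above, completed the 12. Macrophage and leukocyte marker sums moved with these genes.

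Restricting the rule to genes with a mean of 10 CPM or more in the old IFE culture, libraries outside the comparison, left genes that the cells also express in a dish. Egr1, Nr4a1, Dusp1, Csrnp1 and Zfp36 of the early genes, Sgk1, Cd74, Apoe and Gbp4 were among these 12. Cp, ceruloplasmin, a copper-carrying ferroxidase, was at 1099, 1098 and 1103 CPM in lung and at 29.98, 31.27 and 28.09 CPM in culture (37.05-fold, adjusted p = 1.21e-64). Hhip, a membrane antagonist of Hedgehog ligands, was at 347.4, 344.5 and 351.9 CPM in lung and at 11.03, 9.96 and 11.52 CPM in culture (31.89-fold). Npnt, the integrin ligand nephronectin, was at 620, 624.4 and 617.4 CPM in lung and at 24.87, 28.08 and 23.45 CPM in culture (24.52-fold). For these genes the 3 lung libraries lay far above the dish with no overlap.

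The 12 largest falls under the same limits, a mean of 10 CPM or more among them, were genes with low levels in the lung libraries. Ccl20, with a log2 fold change of -4.72, was below that level. Stc2 (ENSMUSG00000020303, chromosome 11, 31307307 to 31320074, minus strand in the files), the secreted glycoprotein stanniocalcin-2, was at 0.95, 0.72 and 1.05 CPM in lung and at 48.11, 46.44 and 45.9 CPM in culture (51.09-fold lower, adjusted p = 1.05e-37). Adh7, a retinol-oxidising dehydrogenase, was at 0.72, 1.87 and 1.54 CPM in lung and at 54.78, 52.28 and 50.71 CPM in culture (37.41-fold lower). Mal2, a protein of apical transport in polarised epithelium, was at 3.74, 4.31 and 2.73 CPM in lung and at 92.73, 86.51 and 87.5 CPM in culture (24.76-fold lower). All of these were low in each lung library. Npr3, the clearance receptor for natriuretic peptides, was 20.05-fold lower, Cdsn, corneodesmosin of keratinising epithelium, 20.47-fold and Adam12, a metalloprotease, 14.91-fold. Tlcd4, Angptl6, Tmem266, Cobl, Igf2bp1 and Entpd3 completed the 12, at 15.86-fold to 37.49-fold lower. Of these, Cobl nucleates actin filaments and Igf2bp1 binds mRNA.

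The same contrast in the old groups shares no library with the young one. There, sorted lung cells of mice labelled old were set against cells kept in IFE of old mice, with the same protocols. Of the 13286 genes tested in both contrasts 10025 were called in the old one (75.5%), 5030 higher (37.9%) and 4995 lower (37.6%). Of the 10568 young calls that were tested there, 8994 (85.1%) were called in the same direction. Of the 3399 genes past the young 2-fold test, 3168 were tested in the old contrast, and 3092 of those were called in the same direction there. The batch label splits the old groups in the same way, so agreement of the contrasts does not separate setting from batch.

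The programs named next had medians of the same sign in both contrasts. In the old one, immediate early genes had a median log2 fold change of 3.99 (27 higher, 1 lower), glucocorticoid receptor targets 1.86, glycolysis and hypoxia genes 1.41, ATF4 genes -1.36, mitosis genes 0.72, mesenchymal genes 2.61 and collagens 1.95. Class I and interferon gamma genes, at 2.54, type I interferon genes, at 1.84, and lysosomal genes, at 0.88, stood lower than the young medians of 3.94, 2.82 and 1.56. Macrophage markers had a median of 4.61 in the old contrast and 8.00 in the young one, as their sum was lower in old lung. The 6 neutrophil markers of both tables summed to 393 to 402.6 CPM in old lung and 215.5 to 229.4 CPM in young lung. Their sum was also higher in old IFE culture, at 147.2 to 210.1 CPM against 114.4 to 123 CPM in young. Of the 12 neutrophil markers of the lung table alone, S100a9 and Ltf had a higher mean in old lung, and the rest a lower one. Trem1, for example, had a mean of 24.13 CPM in young lung and 8.311 CPM in old lung, and S100a9 20.37 and 21.34 CPM. The difference between the contrasts was not tested for these lists.

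**Figure D5:**
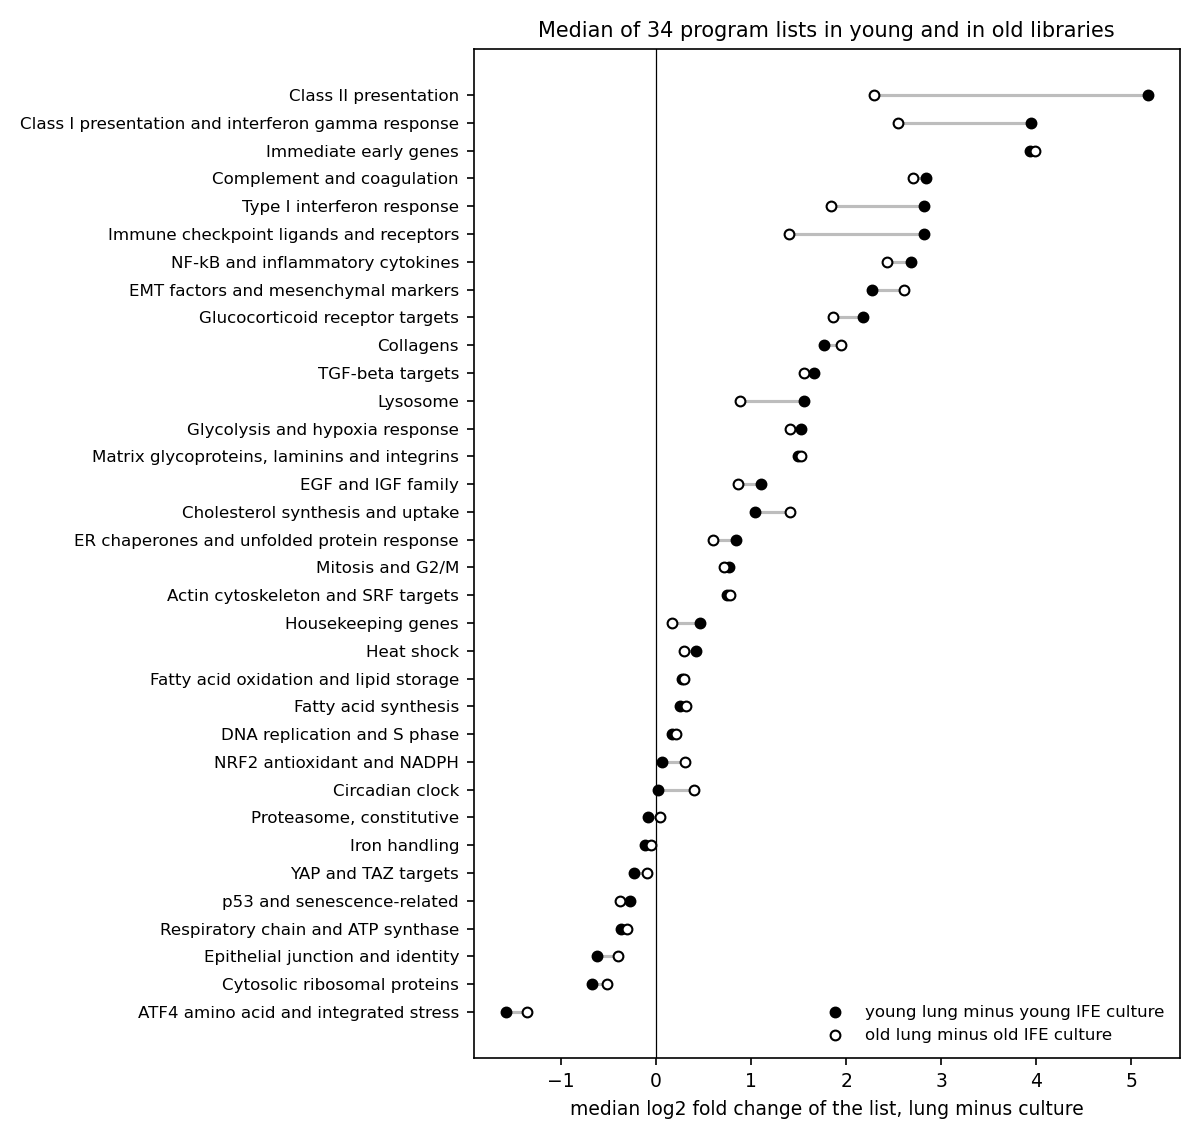
Median log2 fold change of lung over culture of 34 gene lists (1 line each) in the young contrast (filled points) and in the old contrast (open points). The points of immediate early genes nearly coincide at 3.93 and 3.99, and those of class I genes lie apart at 3.94 and 2.54.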

How the data were processed

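RNA of 12 libraries was sequenced, of which 6 enter the comparison. The deposited tables give whole-number counts per gene and, as a second unit, a normalized signal that the authors made by dividing counts by a size factor; both settings have tables of their own. Per the submitters' processing notes the tools were HISAT2 2.0.5, featureCounts 1.5.0-p3 and DESeq2, and the build GRCh38 is named there although rows are mouse Ensembl genes. The deposited protocol names directional and non-directional libraries and does not say which these are, which leaves counts of antisense and overlapping genes uncertain. Reads of young lung replicate 3 were recovered as signal times size factor (100% whole within 0.001 reads), which departs from using deposited counts alone.

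Genes shared by identifier were filtered with edgeR's default (filterByExpr), TMM-scaled and fitted with group as the single term (edgeR 4.0.16, limma 3.58.1, R 4.3.3; python 3.11.15). Calls come from the robust quasi-likelihood F-test, adjusted over 13748 genes, and the 2-fold call from glmTreat. Standard errors were taken as the log2 fold change over the root of its F statistic. Marker sums use library totals of the shared genes. No row lacked a gene name.

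Members, lists and motifs were chosen with earlier results of these data known. Named genes are the 12 largest rises and falls past the 2-fold test with a mean of 10 CPM or more, 12 rises also at 10 CPM or more in old IFE culture, up to 4 called members of lowest p per list, and 22 genes whatever their values. Mycn and Ptprc of these were not tested, and a few genes taken by the rule are not reported. Fos, Nr4a2, Klf4, Tap1, H2-K1, Asns, Atf4, Slc2a1, Ldha, Krt18, Krt14, Snai1, Twist1, Zeb1, Zeb2, the genes of the closing section and the list members given as exceptions were named after their values were seen. Alternatives covered scaling, filter, tool, the fold tested, the replicate block and leaving out libraries.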

Additional observations from a re-analysis of the deposited data

Results flagged for a closer look

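Ccn2, which encodes a matricellular growth factor and is a common target of YAP and TGF-beta, moved in opposite directions in the young and old contrasts. Its log2 fold change was -0.53 in the young one, with 26.63 to 29.05 CPM in lung below 37.14 to 42.48 CPM in culture. It was 0.49 in the old one, with 78.59 to 92.97 CPM in lung above 52.13 to 64.19 CPM in culture. No lung library overlapped a culture library in either contrast, and the difference between the contrasts was not tested.

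Signal also appeared outside the shared genes. A row in the lung table only was held by 4209 genes, 1990 of them protein-coding. They took 0.2% to 0.607% of counts over young and old lung libraries together. The range follows age, as the shared genes took 99.4% of counts in each young lung library and 99.8% in each old one. H19, an imprinted long non-coding RNA of growing tissue, was at 476.4, 471.2 and 452.8 CPM in young lung (mean 466.8) and at a mean of 369.5 CPM in old lung, as CPM of that table's totals with no TMM factor, with no row in the culture table, so it is not compared.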

How the results depend on the processing

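The count of 10868 calls stayed within 1.5 times under each alternative run, from 8119 among genes with a mean of 10 CPM or more to 11620 with no filter, with 10408 by DESeq2 and 10883 by limma-voom. The stricter call depended on its own settings. Past the 2-fold test were 3399 genes, against 1996 (1345 higher, 651 lower) among genes with a mean of 10 CPM or more, 2219 (1441 higher) among genes at 2 CPM or more in old IFE culture, and 2742 by DESeq2. With the fold set at 1.5 there were 5944 calls (2486 lower) and with a fold of 4 there were 1322 (1175 higher, 147 lower). Apart from DESeq2, which tested the same 13748 genes at the same fold, these settings test fewer genes or another fold; the cause of the DESeq2 count was not tested.

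Scaling moved the split of calls. With library totals alone the median log2 fold change of all genes went from 0.019 to -0.11 and the share of calls that were higher from 51.7% to 45.1%; with TMM factors from genes expressed in old IFE culture the median was 0.103 and the share 56.0%. Of 215 named genes, 2 changed. Txnip turned to 0.043 under TMM on genes expressed in old IFE culture and to 0.043 among genes at 2 CPM or more there, and was called lower with library totals alone; Epcam lost its call as given in the report. The cause was not tested.

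Leaving out 1 library at a time gave 10557 to 10885 calls (5417 to 5625 higher, 5140 to 5263 lower) and 3299 to 3496 past the 2-fold test (2300 to 2432 higher, 995 to 1064 lower). Of the 215 named genes 213 to 214 were called, and the old contrast gave 9702 to 10399 calls (4901 to 5301 higher, 4801 to 5098 lower). Lists of 5 or more tested members with over 50% of them called in 1 direction numbered 36, and 34 to 37 with a library left out. Some list medians depended on the settings, of which 18 were run. The median log2 fold change ranged from 0.73 to 1.57 for other matrix genes and from 0.82 to 3.02 for immune checkpoint ligands. It ranged from 5.49 to 8.34 for macrophage markers and from 0.73 to 7.53 for neutrophil markers. For immediate early genes it was 3.34 to 4.01 and for ATF4 genes -1.71 to -1.5. Equal replicate numbers share only a number: correlations of their deviations were 0.052, 0.058 and 0.009. With the replicate block there were 10812 calls (5588 higher, 5224 lower) and 3360 past the 2-fold test.

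Depth limits genes near 0 in culture, whose folds are bounds or carry wide counting intervals. Each group has 3 libraries, the setting cannot be told apart from the batch label, and host RNA was not removed.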

Other observations

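Host transcripts of small nucleolar RNAs were lower in lung. Of 13 tested genes with a symbol that starts with Snhg, 12 were lower, none was higher and 1 was not called, with a median log2 fold change of -2.01; these genes were picked after their values were seen. Zfas1, which hosts such RNAs as well, was at 45.81, 45.01 and 44.08 CPM in lung and at 316.6, 327.9 and 347.7 CPM in culture (7.36-fold lower). Snhg1 was 4.37-fold lower, Snhg12 5.56-fold and Snhg16 4.91-fold. Long non-coding RNAs of 10 CPM or more, 93 in all, were 32 higher and 44 lower, with a median of -0.21, and Malat1, an abundant nuclear one, was 1.18-fold lower. Xist, the RNA that coats an inactive X chromosome, was at 51.38, 52.12 and 51.3 CPM in lung and at 0.12, 0.62 and 0.06 CPM in culture.

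Some genes of secreted proteins, picked after their values were seen, were far above the dish. Spp1, osteopontin, was at 2997, 2996 and 2966 CPM in lung and at 147.8, 140.1 and 112.8 CPM in culture (22.41-fold, adjusted p = 2.6e-06 in edgeR). Dmp1, dentin matrix protein 1, had 5697 counts in lung and 3 in culture, a ratio of 2140 (95% counting interval 731.8 to 1.038e+04), and Mgp, matrix Gla protein, a ratio of 2760 (763.8 to 2.28e+04). The surface antigen gene Ly6a had a ratio of 2595 (887.5 to 1.259e+04), and Ly6e was 22.38-fold higher. Il6, the cytokine, was at 12.88, 13.66 and 17.52 CPM in lung and at 0, 0.31 and 0.35 CPM in culture. The 12 tested protein genes of the mitochondrial chromosome were 3 higher, 2 lower and 7 not called, with a median of -0.03.

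Genes of the lung table alone are given as CPM of that table's totals, with no TMM factor. Their macrophage and monocyte markers summed to 579.5 to 597 CPM in young lung and their class II genes to 502.2 to 528.5 CPM. Ctss, a lysosomal protease of antigen-presenting cells, was at a mean of 204.3 CPM, H2-Eb1 at 279.7 CPM and H2-Aa at 165 CPM in young lung. C1qa, a complement chain of macrophages, was at 150.1 CPM in young and 15.8 CPM in old lung. Ptprc, the leukocyte antigen CD45, was at 57.1 ± 4.76 CPM (SD, n = 3). Col3a1, a fibroblast collagen, was at 66.4 CPM in young and 99.97 CPM in old lung.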
